A study of Ictidomys tridecemlineatus with 15 samples.

Results

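The enzymes and regulators that make fatty acids from acetyl-CoA were followed as nascent transcripts in the liver of 13-lined ground squirrels (Ictidomys tridecemlineatus), a hibernator. The 10 genes were SCD_containing_gene16206, Fasn, Acaca, Acly, Elovl6, Me1, Srebf1, Gpam, Thrsp and Mlxipl. Each was taken as the transcription unit of the deposited count table whose name, split at its colons, held that symbol, and all 10 had a unit among the 6324 in the table. The units of 7 genes carried that gene alone. Elovl6 shared its unit with a U6 annotation, Me1 with Pgm3 and the unnamed gene G37309, and Mlxipl with Tbl2 and Bcl7b, so the values of these 3 are values of the merged units.

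GRO-seq (global run-on sequencing) captures RNA that engaged polymerases extend in isolated nuclei, so its reads over a gene body follow transcription and not the amount of messenger RNA. All animals were females, and every library came from the frozen liver of a different animal. Summer active (SA) squirrels were warm, fed and housed in light before the hibernation season. The other 4 states were winter states of unfed animals in a dark, cold room: interbout aroused (IBA), warm between bouts of torpor; entrance (Ent), cooling into torpor; early torpor (ET) and late torpor (LT), both cold. There were 3 libraries for each of SA, IBA, Ent and ET and 2 for LT (replicates 1 and 3), since LT replicate 2 was not analysed here. The libraries held 3713883 to 8884763 counted reads. By the animal metadata of the study, the tissues came from 3 hibernation seasons. SA replicate 1, Ent replicates 1 and 2 and both LT libraries were from the first, all ET libraries from the second, and SA replicates 2 and 3, all IBA libraries and Ent replicate 3 from the third.

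Cytosolic acetyl-CoA is released from citrate by ATP citrate lyase, carboxylated to malonyl-CoA by acetyl-CoA carboxylase and built into palmitate by fatty acid synthase with NADPH as the reductant. Palmitate is then lengthened and desaturated, and glycerol-phosphate acyltransferase commits the product to triglyceride. In liver the genes of this route are activated by SREBP-1c when insulin is high and by ChREBP when carbohydrate is abundant, and they are classically low in fasting.

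Levels are given as CPM, the reads of a unit relative to the counted reads of its library, after TMM scaling (TMM CPM), which sets each library against the bulk of its own units, so a change of all transcription together would not show. A gene was called when its adjusted p was 0.05 or less in the quasi-likelihood test of edgeR, with p-values adjusted after Benjamini and Hochberg over all 6324 units, and all adjusted p-values here are from that test. In bulk liver, fewer cells of a type and less RNA per cell cannot be told apart.

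The enzyme genes of the route had their highest mean levels in summer, except Me1. In winter SCD_containing_gene16206 and Acly lay low in all 4 states, whereas Fasn and Acaca were lowest in IBA, and the regulators Srebf1 and Mlxipl had their highest means in LT. Of the 10 members, 8 were called among the 5 states, beside 62.0% of all units. From SA to IBA, the comparison of the warm states, 5 members fell (SCD_containing_gene16206, Fasn, Acaca, Acly and Elovl6) and 0 rose, where 2.85% of all units were called lower and 2.37% higher. The median log2 fold change of the 10 members was -1.05, against -0.024 over all units. From SA to Ent, 4 members fell and 0 rose (11.7% of all units lower and 11.8% higher). From SA to ET, 5 fell and 1 rose (27.2% lower and 25.9% higher), and from SA to LT, 4 fell and 1 rose (25.4% lower and 23.7% higher). These counts were repeated with scaling to the uniquely mapped reads of each library instead of by TMM. The share of calls that were higher then rose to 71.6% (Ent), 67.0% (ET) and 62.2% (LT), from 50.4%, 48.8% and 48.2%. Under that scaling 4 members fell and 0 rose to Ent, where 489 of all units were called lower and 1230 higher. To ET 4 fell and 2 rose (1185 of all units lower and 2405 higher). To LT 4 fell and 3 rose (1199 of all units lower and 1971 higher). These 4 comparisons share the 3 SA libraries and are not independent. The members called differed between them: Fasn fell from SA to IBA and to Ent, Acaca from SA to IBA, and Thrsp from SA to ET and to LT.

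**Figure D1:**
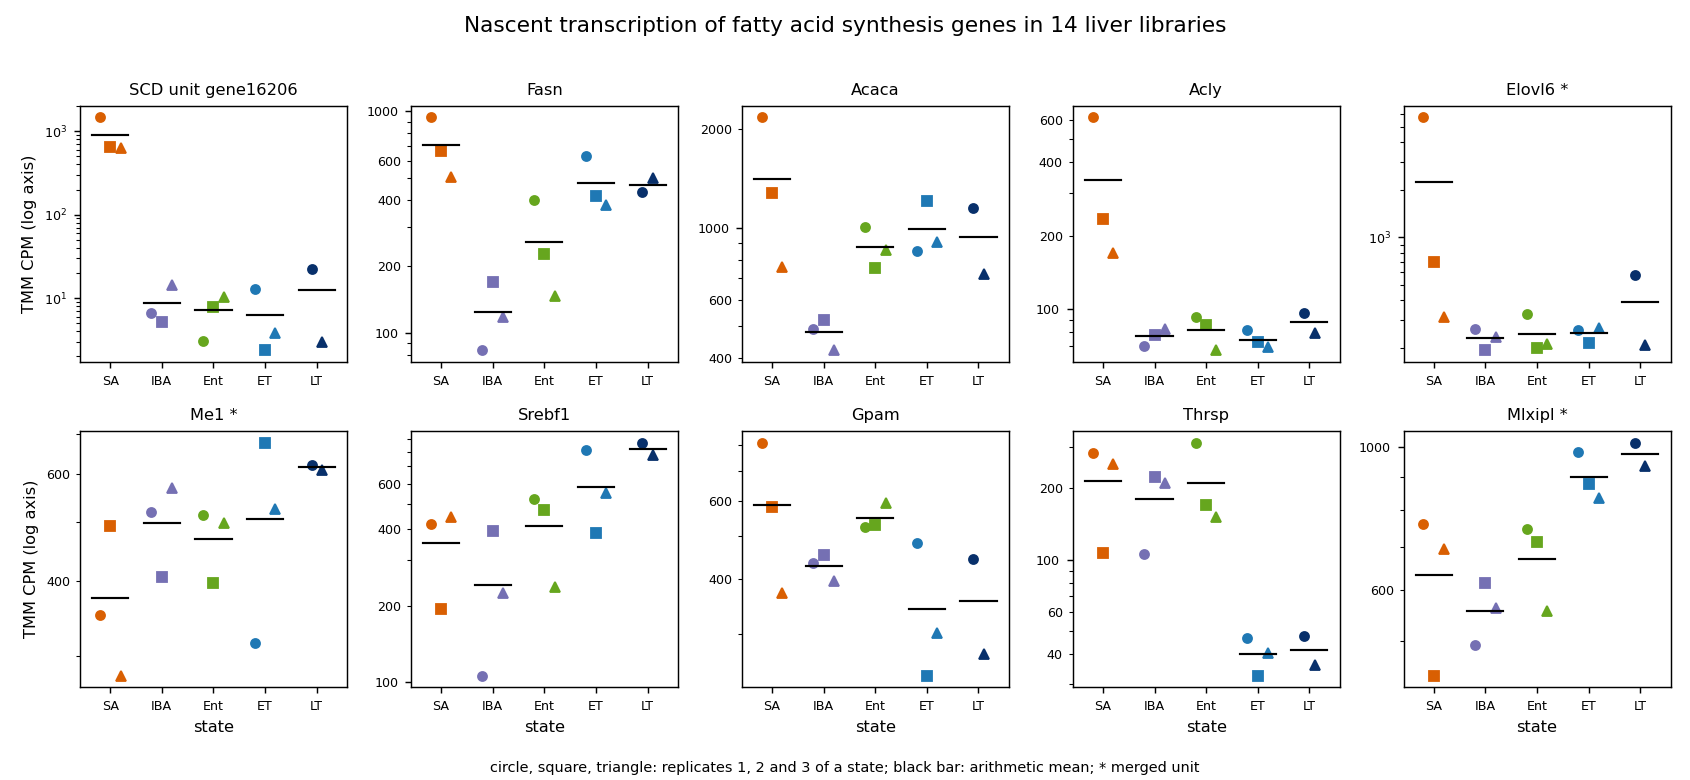
Level of each of the 10 members (TMM CPM, log axis) in the 14 libraries by state, with a point per library and a bar at the arithmetic mean of the state; an asterisk marks a merged unit. SCD_containing_gene16206 lay at 621 TMM CPM or more in summer and at 22.2 or less in winter, Thrsp dropped between Ent and ET, and Fasn lay lowest in IBA.

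SCD_containing_gene16206 is named for stearoyl-CoA desaturase, the enzyme that puts the first double bond into saturated fatty acids. By that name it is called the desaturase here. Its unit ran from base 33657946 to 33672214 of chromosome 1, plus strand, in the authors' HiC_Itri_2 assembly, as do the coordinates that follow. It was at 1465, 643 and 621 TMM CPM in SA replicates 1 to 3. In IBA the values were 6.54, 5.23 and 14.4 TMM CPM, and in Ent 3.04, 7.86 and 10.4. Every summer library was high and none of these winter libraries came near them. ET libraries held 12.7, 2.36 and 3.83 TMM CPM, and LT libraries 22.2 and 2.95. Behind the winter values stood 12 to 147 reads a library, against 2338 to 6079 in summer.

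The lowest summer library lay 27.9 times above the highest of the 11 winter libraries, LT replicate 1, and 43.2 times above the next highest. The log2 fold change from SA was -6.66 to IBA (SE 0.82, adjusted p = 0.0023), -7.01 to Ent (SE 0.83, adjusted p = 0.00050), -7.13 to ET (SE 0.84, adjusted p = 3.7e-05) and -6.18 to LT (SE 0.96, adjusted p = 0.00027). The sizes depended on single winter libraries: to LT it was -8.26 without LT replicate 1 and -5.35 without LT replicate 3, to ET -8.17 without ET replicate 1, and to IBA -7.28 without IBA replicate 3, all still called. Within winter no comparison of this unit was called. Its winter libraries varied by up to 7.54-fold within a state, and IBA to LT gave a log2 fold change of 0.48 (SE 0.82, adjusted p = 0.65).

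On the scale of reads per length, which allows genes to be set side by side, the desaturase unit had the highest mean of the 10 members in summer, at 63.8 TMM CPM per kb, and stood at rank 25 of all 6324 units. In IBA it had the lowest mean of the 10, at 0.61 TMM CPM per kb, and stood at rank 6006. The median unit was at 2.38 and 2.27 TMM CPM per kb in these states. In summer the next member, Thrsp, averaged 41.0 TMM CPM per kb, and its libraries (20.5 to 54.1) overlapped with those of the desaturase (43.5 to 103). The top of the order in summer was therefore not separated beyond the spread of the libraries. The bottom of the winter order was: the highest IBA library of the desaturase was at 1.01 TMM CPM per kb, under the lowest of Acaca, the next member in IBA, at 1.49.

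**Figure D2:**
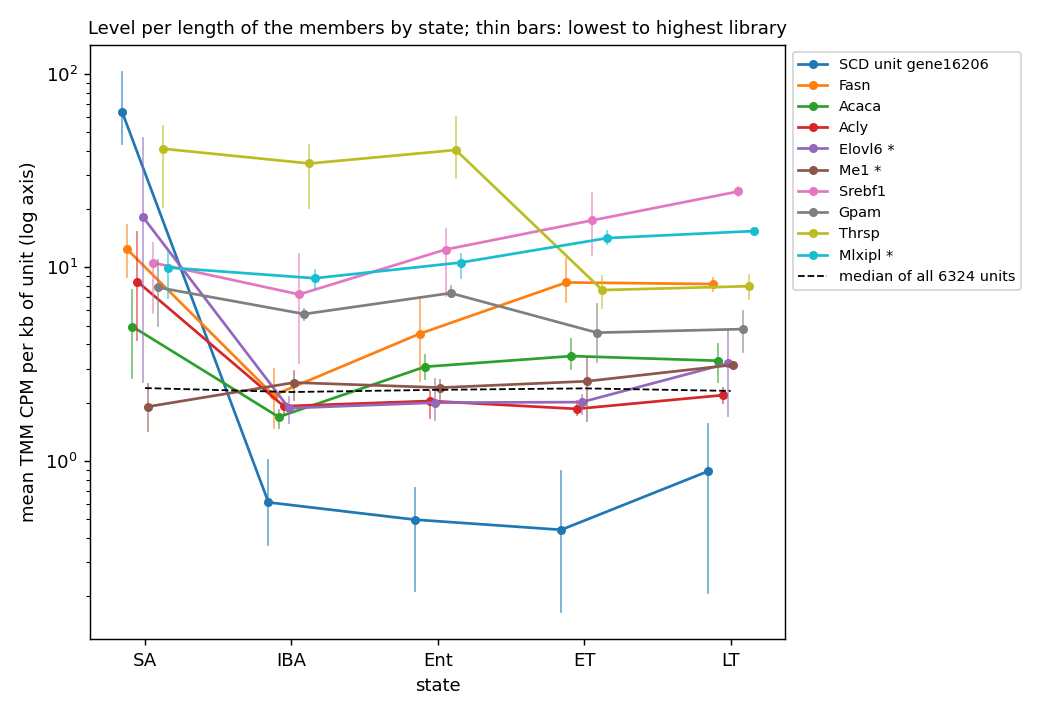
Mean level per kb of unit (TMM CPM per kb, log axis) of each member in each state, with thin bars from the lowest to the highest library and a dashed line at the median of all units. The desaturase unit goes from the highest mean in SA to the lowest in each winter state, and Srebf1 has the highest mean in ET and LT.

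Another pair of units in the table is named for SCD and lies in the same stretch of chromosome 1: SCD_like (33733397 to 33745897, minus strand) and SCD_containing_gene16210 (33793710 to 33806869, plus strand). The 3 units together span 149 kb. Only uniquely aligned reads were counted, so reads shared by near-identical copies would be lost from each, and the split between the 3 is uncertain. SCD_like was at 515, 106 and 109 TMM CPM in SA replicates 1 to 3 and at 1.06 to 16.3 TMM CPM over the 11 winter libraries, and it fell from SA to IBA by 5.39 on the log2 scale (SE 0.89, adjusted p = 0.0050). As in its neighbour, no winter library reached a summer one.

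SCD_containing_gene16210 was lower in summer and less depleted in winter. It was at 134, 53.9 and 49.8 TMM CPM in SA, at 6.39 to 9.41 in IBA and at 17.7 to 47.7 over the Ent, ET and LT libraries. It fell from SA to IBA by 3.25 on the log2 scale (SE 0.48, adjusted p = 0.0034) and rose from IBA to Ent (log2 fold change 1.69, SE 0.47, adjusted p = 0.029). IBA was thus the lowest state for this unit, with no overlap with any other, whereas the other two SCD-named units were not called in any winter comparison run.

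**Figure D3:**
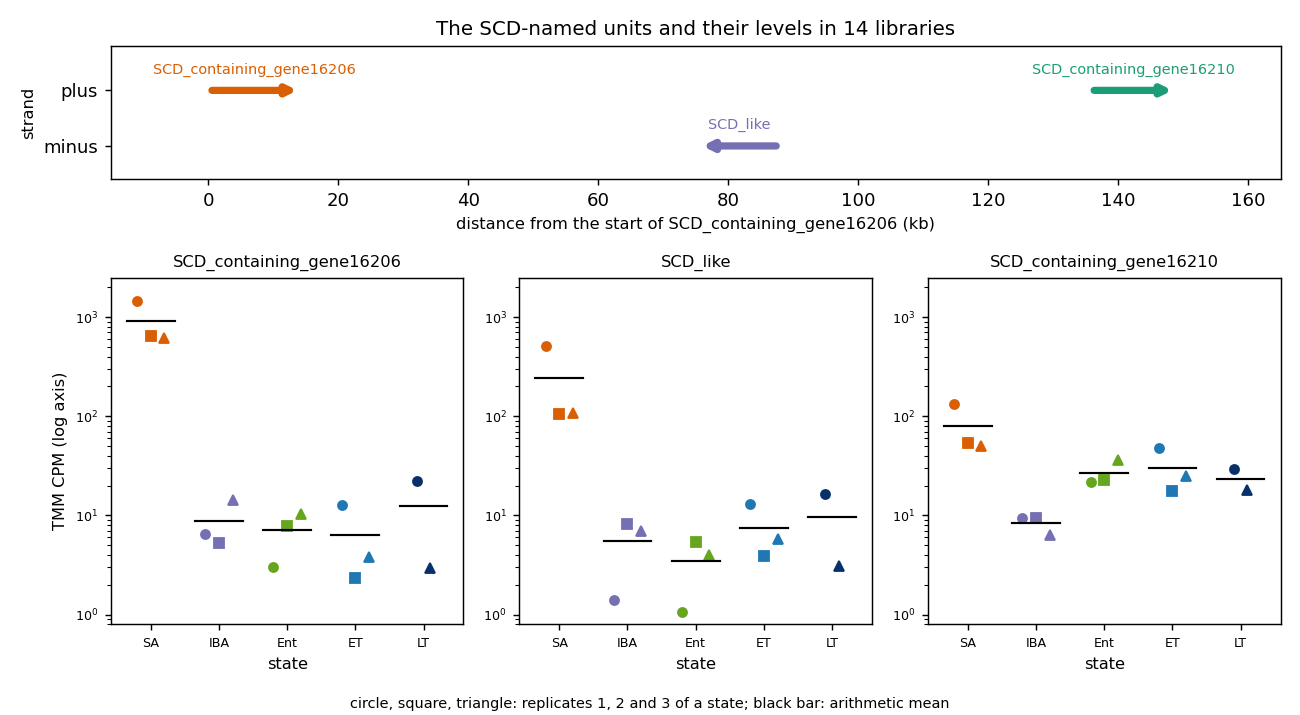
Top, positions of the SCD-named units as distance in kb from the start of SCD_containing_gene16206, arrows pointing in the direction of transcription; bottom, their levels (TMM CPM, log axis) in the 14 libraries by state, with a bar at the mean. All 3 units are highest in SA, and SCD_containing_gene16210 is lowest in IBA.

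Acly encodes ATP citrate lyase, which supplies the cytosolic acetyl-CoA (chromosome 7, 20277486 to 20317664, plus strand). It was at 613, 234 and 170 TMM CPM in the SA libraries and between 67.3 and 96.1 in all 11 winter libraries. The lowest summer library was 1.76 times above the highest winter library. The log2 fold change from SA lay between -1.95 (to LT, SE 0.42, adjusted p = 0.0024) and -2.18 (to ET, SE 0.37, adjusted p = 0.00035). Without SA replicate 1, the highest, it was -1.39 to IBA, -1.30 to Ent, -1.43 to ET and -1.20 to LT, and all 4 were still called. The call to IBA was lost when SA and IBA were fitted alone (-2.12, SE 0.47, adjusted p = 0.067). Among the winter states the means ran from 74.6 TMM CPM in ET to 87.8 in LT, a spread smaller than that of the 3 SA libraries, and no winter comparison was called. Acly and the desaturase were the 2 members in which every SA library exceeded every winter library, as 3.92% of all units did.

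Elovl6 encodes the elongase that carries palmitate to stearate, and its unit also held a U6 annotation (chromosome 15, 10606787 to 10729689, plus strand). It stood at 5745 TMM CPM in SA replicate 1, 694 in replicate 2 and 315 in replicate 3. The winter libraries ranged from 193 to 576 TMM CPM with a median of 235, so SA replicate 3 lay inside the winter range. The unit was called lower from SA to every winter state, with log2 fold changes from -2.52 (to LT, SE 0.94, adjusted p = 0.041) to -3.29 (to IBA, SE 0.83, adjusted p = 0.037). Without SA replicate 1 the change from SA to IBA was -1.13 (SE 0.40, adjusted p = 0.12) and the change to LT was -0.36 (SE 0.44, adjusted p = 0.53), and the change to Ent was -1.03 (SE 0.40, adjusted p = 0.085). None of these was called, whereas the change to ET kept its call (-1.03, SE 0.40, adjusted p = 0.049). The size of the summer excess of Elovl6 thus rested on 1 of the 3 animals. Its call from SA to IBA was also lost without any 1 of the IBA libraries (adjusted p of 0.12, 0.12 and 0.14), and it passed in 12 of 24 alternatives. The call to Ent was also lost without Ent replicate 2 (adjusted p = 0.060) or 3 (adjusted p = 0.062), and the call to LT without LT replicate 1 (-3.43, adjusted p = 0.069) or 3 (-1.97, adjusted p = 0.22).

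Fasn encodes fatty acid synthase, the multienzyme that assembles palmitate. It was counted over 2 stretches of chromosome 7, plus strand, 772533 to 799685 and 802572 to 832163. SA replicates 1 to 3 stood at 940, 665 and 506 TMM CPM. IBA libraries stood at 83.6, 170 and 119, and Ent libraries at 400, 227 and 147. IBA was low in all 3 animals and overlapped with Ent alone, through Ent replicate 3. That library is the only Ent library of the third season, from which all IBA libraries came. In ET the values were 629, 417 and 377 TMM CPM and in LT 431 and 500, so torpid livers were all above the aroused ones and reached the range of the lower summer libraries in ET.

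Fasn fell from SA to IBA (log2 fold change -2.50, SE 0.38, adjusted p = 0.0038) and from SA to Ent (-1.45, SE 0.37, adjusted p = 0.015). The call to Ent was lost without Ent replicate 2 (-1.36, adjusted p = 0.056) or 3 (-1.17, adjusted p = 0.055). From SA to ET the log2 fold change was -0.57 (SE 0.36, adjusted p = 0.20) and from SA to LT -0.60 (SE 0.41, adjusted p = 0.24). From IBA to LT it rose by 1.91 on the log2 scale (SE 0.40, adjusted p = 0.0019). The steps between were not called on their own: IBA to Ent gave 1.06 (SE 0.37, adjusted p = 0.066) and Ent to ET 0.88 (SE 0.36, adjusted p = 0.086).

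Acaca, the acetyl-CoA carboxylase whose malonyl-CoA feeds fatty acid synthase, followed a like course at smaller size (chromosome 7, 35862862 to 36146870, minus strand). Its SA libraries held 2174, 1281 and 761 TMM CPM and its IBA libraries 492, 523 and 422. The 8 libraries of Ent, ET and LT ran from 723 to 1211 TMM CPM, so every IBA library was below every other library of the series. Acaca fell from SA to IBA (log2 fold change -1.55, SE 0.32, adjusted p = 0.014) and rose from IBA to LT (0.97, SE 0.34, adjusted p = 0.033). Neither call held throughout. With libraries of the third season alone, SA to IBA gave -1.09 (SE 0.26, adjusted p = 0.084), and the call was also lost without IBA replicate 1 (adjusted p = 0.056) or 3 (adjusted p = 0.078). The call from IBA to LT was lost without LT replicate 1 (0.59, adjusted p = 0.30) and without any 1 of the IBA libraries (adjusted p of 0.068, 0.056 and 0.093).

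Me1 encodes malic enzyme, a source of NADPH, and lay with Pgm3, an enzyme of amino sugar metabolism, in a unit on chromosome 8 (78848399 to 79044503, minus strand). The merged unit was at 278 to 492 TMM CPM in SA and at 316 to 676 over the winter libraries, which overlapped. It was not called among the 5 states (adjusted p = 0.28). It was the only member with a higher mean in IBA than in SA (log2 fold change 0.42, SE 0.26, adjusted p = 0.39), and the part that Me1 has in these reads cannot be separated.

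Gpam encodes the mitochondrial glycerol-3-phosphate acyltransferase, which starts triglyceride synthesis (chromosome 1, 22738197 to 22812650, plus strand). Its SA libraries were at 810, 580 and 371 TMM CPM, its IBA libraries at 396 to 452, its Ent libraries at 523 to 593, its ET libraries at 242 to 483 and its LT libraries at 271 and 443. The summer libraries spanned the range of most winter ones. Gpam was not called among the 5 states (adjusted p = 0.11). It was lower from SA to ET (log2 fold change -0.78, SE 0.29, adjusted p = 0.040), a call that passed in 13 of 23 alternatives and was lost, among others, without SA replicate 1 (-0.47, adjusted p = 0.19).

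The regulators Srebf1 and Mlxipl had their lowest means in IBA and their highest in LT. Unlike Fasn and Acaca, neither was called from SA to IBA. Srebf1, which encodes the SREBP-1 transcription factors, has its unit on chromosome 7 (61448119 to 61481357, plus strand). Its libraries were at 416, 193 and 446 TMM CPM in SA and at 106, 392 and 225 in IBA, which overlapped. Ent libraries stood at 523, 473 and 236 TMM CPM, ET libraries at 808, 384 and 553, and LT libraries at 867 and 774. Both LT libraries lay above all SA, IBA and Ent libraries. Srebf1 rose from IBA to LT (log2 fold change 1.77, SE 0.50, adjusted p = 0.011), and without LT replicate 1 gave 1.68 (adjusted p = 0.056). From SA it gave -0.55 to IBA (SE 0.46, adjusted p = 0.54) and 1.22 to LT (SE 0.50, adjusted p = 0.059), and neither was called.

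Mlxipl encodes ChREBP, the carbohydrate-response factor, in a unit shared with Tbl2 and Bcl7b (chromosome 9, 131180224 to 131243624, plus strand). The merged unit was at 760, 442 and 696 TMM CPM in SA, at 493 to 615 in IBA and at 556 to 746 in Ent. SA and IBA overlapped, with a log2 fold change of -0.18 (SE 0.19, adjusted p = 0.64). ET libraries held 836 to 982 TMM CPM and LT libraries 1017 and 937, all above every SA, IBA and Ent library. It rose from SA to ET (log2 fold change 0.51, SE 0.19, adjusted p = 0.043), from SA to LT (0.63, SE 0.21, adjusted p = 0.028) and from IBA to LT (0.81, SE 0.21, adjusted p = 0.0075). The calls against SA were lost without SA replicate 2, the lowest summer library, with 0.30 to ET (adjusted p = 0.13) and 0.42 to LT (adjusted p = 0.063). They passed in 12 of 22 and in 18 of 23 alternatives, and the call from IBA to LT was lost without LT replicate 1 (0.75, adjusted p = 0.054).

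Thrsp encodes Spot 14, a small thyroid hormone-responsive protein that promotes lipogenesis, and has the shortest unit of the 10 (5227 nt; chromosome 3, 65023196 to 65028422, plus strand). It was at 283, 107 and 253 TMM CPM in SA, at 105, 223 and 211 in IBA and at 312, 170 and 152 in Ent. Summer and the warmer winter states overlapped, and SA to IBA gave a log2 fold change of -0.25 (SE 0.38, adjusted p = 0.75). In ET it was at 47.0, 32.4 and 40.4 TMM CPM and in LT at 47.5 and 36.1. All cold libraries were thus below all others.

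The step came between Ent and ET, where Thrsp fell by 2.40 on the log2 scale (SE 0.40, adjusted p = 0.0014). It was the only member called there, with 1 of 10 lower and 0 higher beside 13.4% and 15.3% of all units. All ET libraries came from a single season that no other state shares, so season and state cannot be told apart in this step. Both LT libraries lay in the same range. The change from SA to LT was -2.36 (SE 0.47, adjusted p = 0.0013), and from IBA, which shares no season with LT, -2.11 (SE 0.46, adjusted p = 0.0024).

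**Figure D4:**
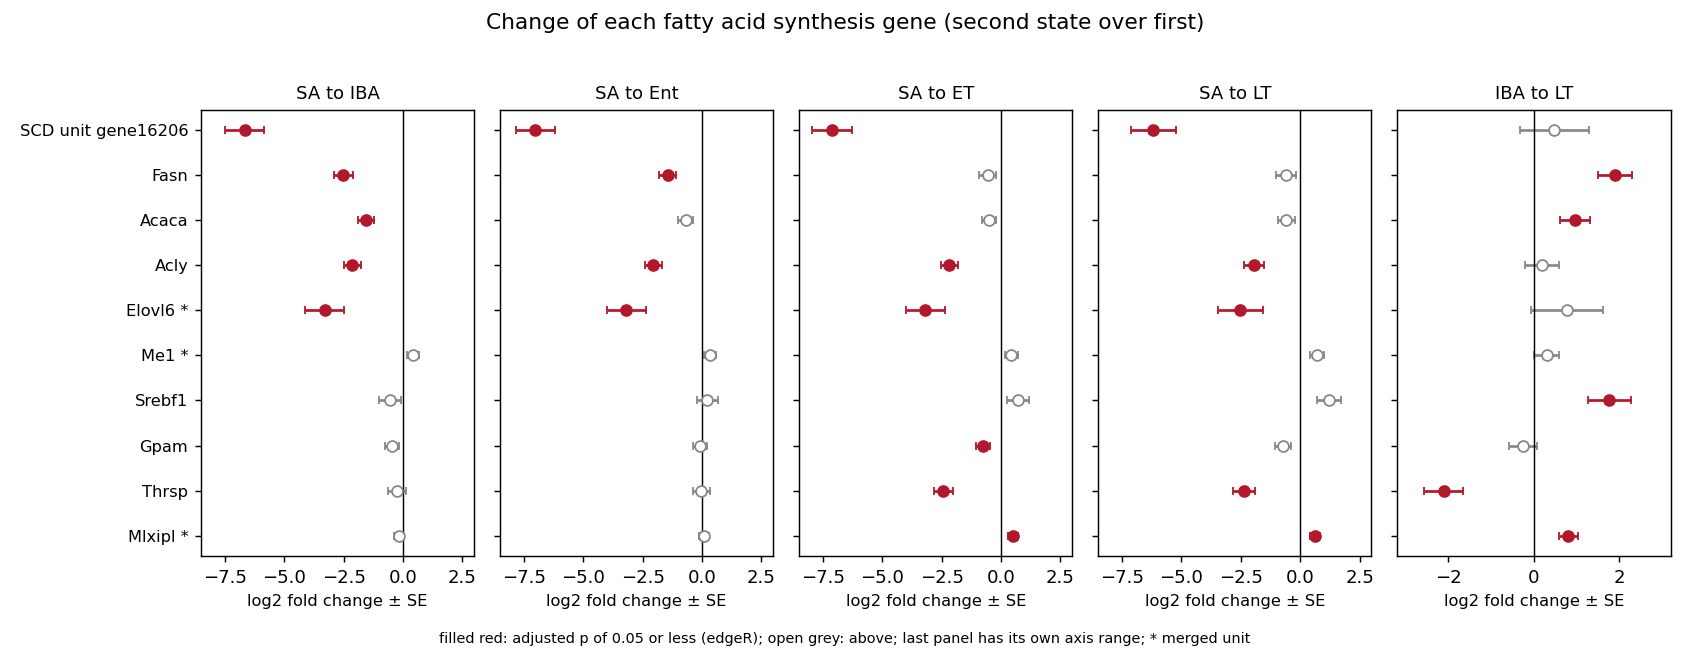
Log2 fold change of each member with its standard error for the comparisons of SA with each winter state and for IBA to LT; filled red points have an adjusted p of 0.05 or less in edgeR's quasi-likelihood test, and the last panel has its own axis. Fasn moves from -2.50 in IBA to -0.60 in LT, whereas the desaturase unit and Acly remain low in all 4 winter states.

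Inside the torpor cycle, 4 members rose from IBA to LT (Fasn, Acaca, Srebf1 and Mlxipl) and Thrsp fell, where 24.8% of all units were called higher and 25.0% lower. This comparison changed units in both directions across the table. The members' median log2 fold change was 0.63 against -0.047 over all units. From IBA to Ent, 0 members were called by edgeR's quasi-likelihood test (16.1% of all units). In that test 2 had an unadjusted p under 0.05 (Fasn and Acaca), beside 2056 of all 6324 units. DESeq2 called 2 members there and limma-voom 0, and their calls over all units were not counted. From ET to LT, 0 members were called (0.269% of all units), 0 had an unadjusted p under 0.05, and DESeq2 and limma-voom called 0 each. The IBA and LT libraries come from different seasons. With season as a covariate, estimated from SA and Ent, Thrsp alone stayed called (-2.76, SE 0.56, adjusted p = 0.0031), and Fasn gave 1.02 (SE 0.45, adjusted p = 0.098), Acaca 0.40 (adjusted p = 0.49), Srebf1 1.04 (adjusted p = 0.25) and Mlxipl 0.41 (adjusted p = 0.24).

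Nearby units were looked up for the members that rose. Upstream of Fasn on its strand the nearest unit was Csnk1d, 81.5 kb away, and it also rose from IBA to LT (log2 fold change 1.47, adjusted p = 0.00049). Upstream of Srebf1 on its strand was Tom1l2, 17.6 kb away, with a log2 fold change of -0.059 (adjusted p = 0.78). The nearest upstream unit of Mlxipl lay on the other strand. Acaca had its nearest upstream unit on its own strand 84.6 kb away, with a log2 fold change of 0.063 (adjusted p = 0.76). Any part of reads running on from a neighbour in these results was not tested. The authors extended units downstream where transcribed segments ran past the annotated end. From Ent to LT the paper reports polymerases increasingly far past gene ends, and it proposes a failure to terminate. The part of such reads in the members' own values in the cold states was not tested either.

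The summer libraries were uneven. SA replicate 1, the only summer library of the first season, was the highest of the 3 for 8 of the 10 members, and SA replicate 3 was the lowest for 7. For Elovl6 the summer libraries differed 18.2-fold, for Acly 3.62-fold and for the desaturase 2.36-fold. Season and animal cannot be told apart within summer. An analysis chosen after the data were seen used the 5 SA and IBA libraries of the third season. There the desaturase (log2 fold change -6.14, SE 0.42, adjusted p = 0.0046), Fasn (-2.24, SE 0.31, adjusted p = 0.030) and Acly (-1.39, SE 0.18, adjusted p = 0.030) were still called lower in IBA. In all, 3 members were called, beside 189 of all 6324 units.

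Markers of the cells in the tissue were read beside these values. Of 15 hepatocyte markers, 10 had a unit of their own, and their summed level ran from 12468 to 23190 TMM CPM in SA, 11183 to 15301 in IBA, 8085 to 10071 in Ent, 4171 to 6694 in ET and 5231 to 7778 in LT. From SA to IBA 1 of the 10 was called higher and 0 lower (2.37% of all units higher and 2.85% lower). From SA to LT 8 were lower and 1 higher (25.4% of all units lower and 23.7% higher). From IBA to LT 7 were lower and 1 higher (25.0% lower and 24.8% higher), with a median log2 fold change of -1.41. SA replicate 1 stood at 16178, between the other summer libraries. The sum leaned on Cps1, which averaged 7452 TMM CPM in SA (2643 to 13658) within a mean sum of 17279. Endothelial markers with a unit of their own (4 of 10) summed to 213 to 266 TMM CPM in SA, 228 to 258 in IBA, 230 to 264 in Ent, 137 to 220 in ET and 148 to 161 in LT. Of 8 cholangiocyte markers only Sox9 had its own unit, at 25.9 to 41.0 TMM CPM in SA and 7.07 to 10.1 in LT. Of 8 adipocyte markers only Cidea had one, at 13.5 to 25.7 TMM CPM in SA and 49.3 to 53.4 in LT. Of 10 macrophage markers and 10 stellate cell markers none had a unit of its own. The summed hepatocyte markers of SA and IBA thus overlapped, and most of these markers fell from SA to the cold states, as Thrsp did. Their part in the members' cold values was not tested.

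The wider pathway was read from gene lists, each described by its genes with a unit of their own. The counts of each list stand beside the shares of all units given above, 2.85% lower and 2.37% higher from SA to IBA and 25.0% lower and 24.8% higher from IBA to LT. The IBA and LT libraries come from different seasons. With season as a covariate 2253 of all 6324 units were called from IBA to LT, against 3151 without. The lists were not read under that fit or without single libraries. Among 14 of 26 genes that supply acetyl-CoA and NADPH, 4 fell and 0 rose from SA to IBA, with a median log2 fold change of -0.27. Acss2, the cytosolic acetyl-CoA synthetase that activates acetate, fell furthest. It was at 776, 268 and 210 TMM CPM in SA and at 73.1 to 144 over the winter libraries, with no overlap, and it fell from SA to IBA by 1.86 on the log2 scale (SE 0.41, adjusted p = 0.020). Tkt, the transketolase of the pentose phosphate pathway (-0.93, SE 0.20, adjusted p = 0.017), and Mdh1, the cytosolic malate dehydrogenase (-0.88, SE 0.17, adjusted p = 0.012), followed. Between IBA and LT 10 of the 14 rose and 0 fell (24.8% of all units higher and 25.0% lower), with a median of 0.84 against -0.047 over all units. The largest rises were those of Pgd, the NADPH-forming phosphogluconate dehydrogenase (log2 fold change 1.97, SE 0.34, adjusted p = 0.00047), Mdh1 (1.63, SE 0.19, adjusted p = 3.9e-05) and Pdhb, a subunit of pyruvate dehydrogenase (1.53, SE 0.22, adjusted p = 0.00017).

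Acetyl-CoA carboxylase is held in check by AMP-activated protein kinase, and malonyl-CoA is removed by malonyl-CoA decarboxylase. Of 15 genes listed for this control, 5 had a unit of their own. Acacb, the second carboxylase, whose malonyl-CoA restrains mitochondrial fatty acid uptake, was the 1 called from SA to IBA. It was at 1963, 1724 and 306 TMM CPM in SA, at 179 to 238 in IBA and at 376 to 972 over the Ent, ET and LT libraries. Its IBA libraries were the lowest of the series, as were those of Acaca. Acacb fell by 2.69 on the log2 scale from SA to IBA (SE 0.58, adjusted p = 0.017) and rose by 1.70 from IBA to LT (SE 0.60, adjusted p = 0.032). From IBA to LT 2 of the 5 rose and 2 fell (24.8% of all units higher and 25.0% lower). Mlycd, the decarboxylase, rose (log2 fold change 1.54, SE 0.17, adjusted p = 2.5e-05), and Cab39l, a partner of the kinase LKB1 (-0.84, SE 0.23, adjusted p = 0.0084), and Prkab1, a subunit of AMP-activated protein kinase (-0.78, SE 0.18, adjusted p = 0.0034), fell.

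Among 13 of 24 genes of the control of the pathway, 3 fell and 0 rose from SA to IBA, with a median of 0.12. Insig1 is a sterol-regulated gene whose protein retains SREBP in the endoplasmic reticulum. It was at 116, 534 and 262 TMM CPM in SA and at 73.0, 75.9 and 120 in IBA, where its lowest summer library overlapped with the highest of IBA. Insig1 fell by 1.76 on the log2 scale (SE 0.43, adjusted p = 0.031). Nampt, which makes an NAD precursor, fell by 1.16 (SE 0.21, adjusted p = 0.0090), and Scap, the escort of SREBP to the Golgi, by 0.99 (SE 0.15, adjusted p = 0.0036). Between IBA and LT 4 of the 13 rose, near the 24.8% of all units called higher, and 7 fell, beside 25.0% of all units, with a median of -0.51. Nampt (1.05), Mbtps1, the protease that first cleaves SREBP (0.97), and Rxra, the partner of LXR (0.91), rose most. Onecut1, a liver transcription factor (-2.16), Mid1ip1, a relative of Spot 14 that activates acetyl-CoA carboxylase (-1.88), and Nfya, a subunit of the factor NF-Y (-1.59), fell most.

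**Figure D5:**
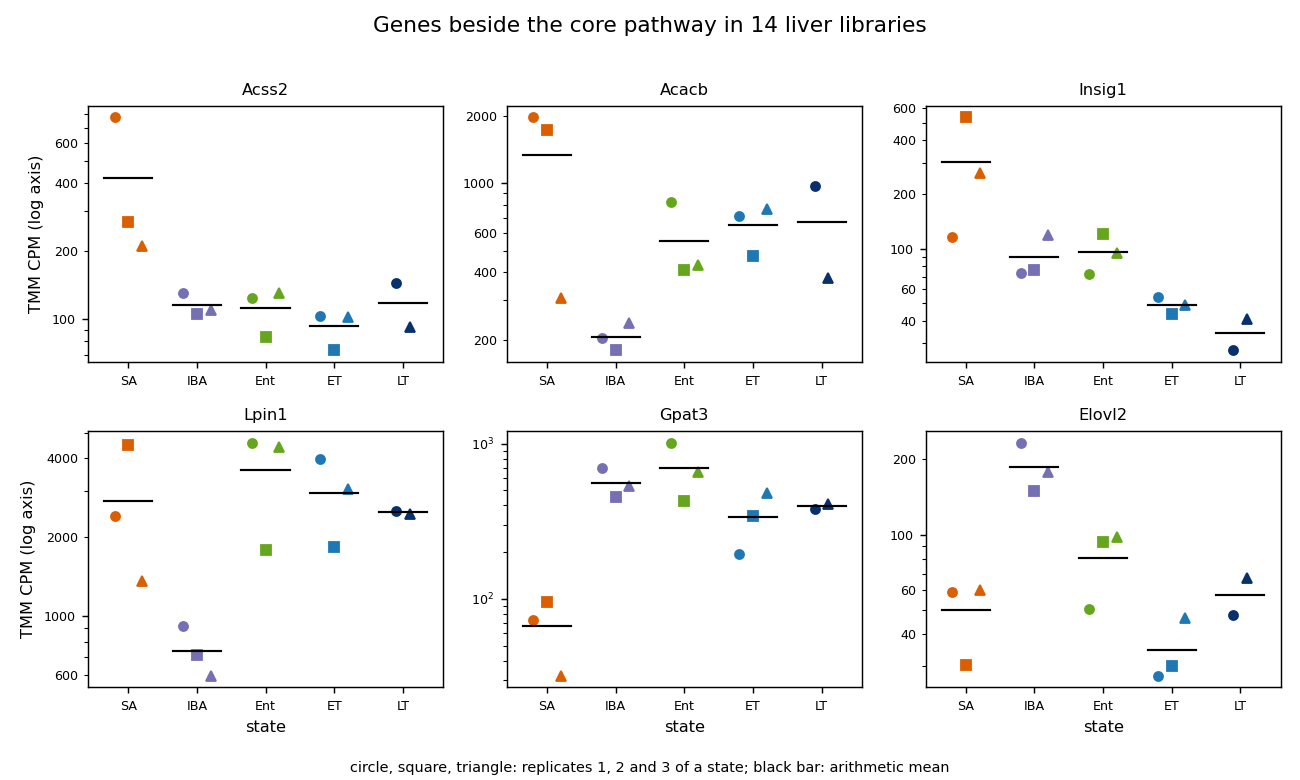
Levels (TMM CPM, log axis) of Acss2, Acacb, Insig1, Lpin1, Gpat3 and Elovl2 in the 14 libraries by state, with a bar at the mean. Acss2 is highest in SA, Acacb and Lpin1 are lowest in IBA, Gpat3 is lowest in SA, and Elovl2 is highest in IBA.

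The list of elongation and desaturation held enzymes of the common elongation cycle and of the polyunsaturated chains. Among 8 of its 17 genes, 2 rose and 0 fell from SA to IBA, with a median of 0.40. Elovl2, the elongase of long polyunsaturated chains, was at 59.1, 30.3 and 60.4 TMM CPM in SA and at 233, 150 and 179 in IBA, with no overlap, and rose by a log2 fold change of 1.90 (SE 0.33, adjusted p = 0.0062). Hacd3, a dehydratase of the elongation cycle, rose by 0.74 (SE 0.18, adjusted p = 0.034). Between IBA and LT 5 of the 8 fell and 0 rose (25.0% of all units lower and 24.8% higher), with a median of -1.15. Of the 10 hepatocyte markers 7 fell in the same comparison, with a median of -1.41, and their part in these values was not tested. Fads1, the delta-5 desaturase, fell by 2.54 on the log2 scale (SE 0.42, adjusted p = 0.00038), Hacd3 by 2.04 (SE 0.22, adjusted p = 2.4e-05) and Fads2, the delta-6 desaturase, by 1.81 (SE 0.49, adjusted p = 0.0090).

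In the synthesis of glycerolipids, 11 of 22 listed genes had a unit of their own, and 1 rose and 1 fell from SA to IBA, with a median of -0.19. Gpat3, an acyltransferase of the endoplasmic reticulum that catalyses the same first step as Gpam, was at 72.5, 95.7 and 32.0 TMM CPM in SA and between 196 and 1016 in all winter libraries. It rose from SA to IBA by a log2 fold change of 3.08 (SE 0.44, adjusted p = 0.0029). Lpin1, the phosphatidate phosphatase, was at 2417, 4496 and 1360 TMM CPM in SA, at 595 to 916 in IBA and at 1783 to 4576 over the Ent, ET and LT libraries. IBA was its lowest state with no overlap, and it fell from SA to IBA by 1.90 on the log2 scale (SE 0.45, adjusted p = 0.029) and rose from IBA to LT by 1.74 (SE 0.48, adjusted p = 0.010). From IBA to LT 2 of the 11 rose and 3 fell, with a median of -0.12, counts near the shares of all units (24.8% higher and 25.0% lower). Acsl3, which activates fatty acids, rose by 1.08 (SE 0.22, adjusted p = 0.0015), and Agpat1 (-3.12, SE 0.32), Agpat3 (-0.97, SE 0.38), both acyltransferases of the next step, and Gk, glycerol kinase (-0.85, SE 0.29), fell.

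Fatty acid oxidation was read as the opposite route. Of 20 listed genes 10 had a unit of their own. From SA to IBA 1 rose, Hadh, a dehydrogenase of beta-oxidation (log2 fold change 0.59, SE 0.14, adjusted p = 0.032), and 0 fell, with a median of 0.38. From IBA to LT 0 rose and 1 fell (24.8% of all units higher and 25.0% lower), Fgf21, a hormone of the fasted liver, from a mean of 68.9 to 4.09 TMM CPM (log2 fold change -4.07, SE 1.16, adjusted p = 0.012).

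The single-gene units with the course most like that of the desaturase, by Pearson's r of log2 CPM over the 14 libraries, were SCD_like (r = 0.945), Aacs_rna21691 (0.939), Mmp20 (0.934), LOC101965479 (0.921) and Samd4a (0.921). With 3 summer and 11 winter libraries, the distance between summer and winter carries these values, and they are given as a description. The unit named for Aacs, the acetoacetyl-CoA synthetase that returns ketone bodies to lipid synthesis, was at 520, 160 and 54.4 TMM CPM in SA and at 2.82 to 11.8 over the winter libraries. Mmp20, named for a matrix metalloproteinase of tooth enamel, averaged 124 TMM CPM in SA and did not exceed 7.22 in any winter library. Most like the mean of the 10 standardized members were PDHA1_containing (r = 0.866), Acacb (0.834), SCD_containing_gene16210 (0.834), Sts (0.826) and Marveld3 (0.818). The first of these is named for the catalytic subunit of pyruvate dehydrogenase, and its mean was 47.7 TMM CPM in SA and 21.7 in IBA (log2 fold change -1.13, adjusted p = 0.022). Because the members' own libraries set this order, it is no separate evidence on them.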

How the data were processed

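GRO-seq libraries of liver nuclei were processed by the authors: reads were trimmed with cutadapt and aligned to HiC_Itri_2 with BWA, and uniquely aligned reads were counted with featureCounts over gene bodies that had been extended by fstitch segments, merged where genes overlapped and stripped of their first bases. Tool versions are not given in the sources used here. The deposited counts are raw whole numbers, 3713883 to 8884763 per library over 6324 units (4705 with a single gene name). The authors tested with DESeq2.

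Counts of 14 libraries were fitted here with edgeR 4.0.16 in R 4.3.3 (quasi-likelihood, TMM, state as the only term, all libraries sharing the spread). A unit was called at an adjusted p of 0.05 or less over all units; no unit was filtered. The standard error of a log2 fold change is its size divided by the square root of the F statistic. The threshold of 0.001, DESeq2 1.42.0, limma-voom 3.58.1, other scalings, a minimum of 10 counts, the replicate block, season and leaving out each library were alternatives. The fits were tested on simulated data. Of single-gene names, 4063 matched a RefSeq symbol. Figures were drawn with matplotlib 3.10.9.

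The members and gene lists were chosen with earlier results of these data known. Named genes were all members and, from each list, up to 3 called genes with the largest rise and up to 3 with the largest fall from SA to IBA and from IBA to LT. The 5 units most like the desaturase and the 5 most like the members' mean were also named. Same-numbered replicates did not deviate together (r from -0.26 to 0.23 over 26 pairs), so the numbers were not used to pair animals.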

Additional observations from a re-analysis of the deposited data

How the results depend on the processing

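The members' 36 fold changes were recomputed under each alternative, of which 26 were called. In 13 of these 26 the adjusted p stayed at 0.05 or less under every alternative fit run for it (season could not be estimated for ET, which shares its season with no other state): the desaturase and Acly from SA to Ent, ET and LT, Elovl6 from SA to ET, Thrsp from SA to ET and LT, from Ent to ET and from IBA to LT, and the desaturase and Fasn from SA to IBA. At an adjusted p of 0.001 the members called were 4 among the 5 states, 0 from SA to IBA, 1 to Ent, 3 to ET, 1 to LT, 0 from Ent to ET and 0 from IBA to LT. Fitting the compared states alone gave 2 from SA to IBA (176 of all 6324 units), 2 from SA to Ent and 1 from IBA to Ent. DESeq2 gave 2 from IBA to Ent and 2 from Ent to ET. Scaling to uniquely mapped reads gave 2 from IBA to Ent (1007 of all 6324 units higher and 294 lower). From Ent to ET it gave 3 (1295 of all units higher and 624 lower). Season as a covariate gave 1 from IBA to LT (2253 of all 6324 units). The third season alone, added later, gave 3 from SA to IBA (189 of all 6324 units). Single-gene units alone gave 3 from SA to LT. That fit left out the merged units, Elovl6 and Mlxipl among them, so its lower count follows from their absence. With the replicate block 2 were called from Ent to ET, and 8 among the 5 states (3674 of all 6324 units). Same-numbered libraries were the best match of 3 of 14, so no pairing was read from this block. Where no count of all units stands beside a count of members in this paragraph, none was taken for that fit or threshold. Such member counts cannot be set against all units.

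Leaving out each library in turn gave 6 to 8 members among the 5 states, 3 to 5 from SA to IBA, 2 to 5 to Ent, 4 to 7 to ET, 3 to 7 to LT, 0 to 1 from IBA to Ent, 1 to 2 from Ent to ET, 0 to 0 from ET to LT and 2 to 5 from IBA to LT. The lowest counts came without IBA replicate 1 or 3 (SA to IBA, 3), Ent replicate 2 or 3 (SA to Ent, 2) and LT replicate 1 (IBA to LT, 2). Of all 6324 units, 148 were called from SA to IBA without IBA replicate 1 and 115 without IBA replicate 3. Without LT replicate 1, 2138 were called from IBA to LT. Over all these fits 3531 to 4023 units were called among the 5 states, 115 to 409 from SA to IBA and 2138 to 3341 from IBA to LT. For the other comparisons the calls over all units were not counted, so those ranges have no background beside them. Sign changed only for uncalled values: from IBA to LT, the desaturase was -0.078 with limma-voom, and with season Acly was -0.83 and Elovl6 -1.15; without 1 library the desaturase ran from -1.60 to 1.31, Elovl6 from -0.14 to 1.32, Gpam from -0.65 to 0.052, and Thrsp from SA to IBA from -0.57 to 0.017. The cause was not tested.

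Scaling to uniquely mapped reads moved the median of all units by up to 0.27 (SA to ET) and the share of calls that were higher from IBA to LT from 49.8% to 62.6%, yet 0 members were higher and 5 lower from SA to IBA and 4 higher and 1 lower from IBA to LT, as under RLE and upper-quartile scaling. From SA, 2 were higher and 4 lower to ET and 3 higher and 4 lower to LT, against 1 and 5 and 1 and 4 under TMM. Of all units, scaling to uniquely mapped reads called 2405 higher and 1185 lower from SA to ET, and 1971 higher and 1199 lower to LT. From SA to IBA it called 150 higher and 192 lower, and from IBA to LT 2006 higher and 1199 lower. The desaturase rested on 12 to 147 reads in winter libraries.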
